A study of Homo sapiens with 6 samples.

Results

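Followed here were 10 human genes of secreted matrix glycoproteins that bind cells or other matrix molecules: FN1, TNC, THBS1, THBS2, SPARC, SPP1, POSTN, ABI3BP, NID1 and NID2. They are called matricellular genes below. That name is used loosely, since fibronectin and the nidogens are also structural parts of the matrix. The 10 genes were taken by gene name from the 58735 genes of the count and FPKM tables. The genes were chosen by name with their earlier fold changes between DLX5 overexpression and control known, so their own values in that comparison are given as a description, without a test. The study sequenced RNA of SY5Y, an established line of human neuroblastoma. There were 3 libraries of cells with the genotype DLX5 overexpression, DLX5 being a distal-less homeobox transcription factor, and 3 libraries of control genotype. All 6 came from serum-containing DMEM/F12 cultures, with no other treatment named in the labels. The labels give neither the vector or promoter that drove DLX5, nor whether the line was 1 clone, nor whether replicates came from separate cultures. The p-values given for other genes therefore cover no more than library-to-library spread, possibly of technical origin.

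Fibronectin, tenascins and thrombospondins are large multidomain proteins that cells recognise mainly through integrins. SPARC, osteopontin and periostin bind collagens or cell receptors and are prominent in tissues under repair and in bone, where several of them were first described. Nidogens link laminin to collagen IV in basement membranes. In the developing nervous system, matrix of this kind lies along the paths of migrating neural crest cells, the lineage from which neuroblastoma arises.

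The libraries held 14644077 to 16886026 counted reads each. DLX5 itself stood at 1582, 1569 and 1677 CPM in the DLX5 libraries, against 12.4, 12.3 and 13.8 CPM in the controls, where CPM is the count scaled to a common library size by the TMM-adjusted total. Each library thus matched its label. Of 17269 genes that could be tested, 29.8% passed as higher and 28.8% as lower, 58.6% in all (edgeR quasi-likelihood test, Benjamini-Hochberg adjusted p under 0.05), and the median log2 fold change was -0.0018. Groups that did not overlap were found in 62.5% of those genes. Among the 10 matricellular genes 9 could be fitted, and in 8 of them all DLX5 libraries lay above all controls and in 1 below. That count is a description of genes chosen with these values known, and nothing is read from it. Of 10 neuroblastoma markers, HAND2 and DBH stayed abundant in all libraries, while TH, tyrosine hydroxylase, had 1, 1 and 0 reads in the DLX5 libraries, against 26, 24 and 30 in the controls. All 10 fell, and their summed level was 1946 to 2059 CPM across the DLX5 libraries and 4875 to 5234 CPM in the controls. In bulk RNA, fewer cells of a type and less RNA per cell cannot be told apart.

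The widest difference was in ABI3BP (ENSG00000154175, chromosome 3, 100749156 to 100993515, minus strand, GRCh38), a secreted fibronectin type III protein named for its binding to the adaptor ABI3. It was counted at 1292, 1241 and 1245 CPM in the DLX5 libraries, against 8.84, 9.77 and 10.8 CPM in the controls. The groups lay far apart, and the spread within each was small beside the gap. The log2 fold change was 7.00 ± 0.08 (SE of the fit over all genes), or 128-fold, which placed ABI3BP at rank 48 from the top among the 17269 tested genes. On log2(FPKM + 1), which compresses genes low in 1 group, it was 5.93. The gene was not absent from the controls. Over the 3 control libraries it had 472 reads, against 61144 over the DLX5 libraries, so the ratio of scaled counts was 128 with an exact 95% counting interval of 117 to 141. Intervals of this kind cover counting error only.

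FN1 (ENSG00000115414, chromosome 2, 215360440 to 215436172, minus strand) encodes fibronectin, the main adhesive glycoprotein that cells assemble into fibrils. It was at 2184, 2117 and 2043 CPM in the DLX5 libraries, against 1283, 1226 and 1431 CPM in the controls. The 3 DLX5 libraries lay above the 3 controls, and FN1 had the highest mean level of the 10 genes in both groups. Its log2 fold change of 0.69 ± 0.06 corresponds to 1.61-fold. Measured against FN1 per base of gene length, ABI3BP stood at 0.940 ± 0.0191 of the FN1 level in the DLX5 libraries and at 0.0118 ± 0.000853 in the controls (ratio of FPKM, SD, n = 3 each).

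TNC (ENSG00000041982, chromosome 9, 115019578 to 115118257, minus strand) encodes tenascin-C, a hexameric protein that modulates cell adhesion to fibronectin. Its levels were 1005, 1019 and 1007 CPM with DLX5, against 649, 609 and 699 CPM in control. Again the groups did not overlap, though the difference of 0.63 ± 0.06 on the log2 scale, 1.55-fold, was the narrowest of the 9. TNC and FN1 kept a similar proportion, with a TNC to FN1 FPKM ratio of 0.859 ± 0.0297 in the DLX5 libraries and 0.893 ± 0.0155 in the controls (SD, n = 3 each).

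THBS1 and THBS2, which encode thrombospondins known for restraining angiogenesis, lay on opposite sides. THBS1 (ENSG00000137801, chromosome 15, 39581079 to 39599466, plus strand), whose protein can also activate latent TGF-beta, stood at 1089, 1145 and 1048 CPM in the DLX5 libraries, against 51.9, 53.1 and 56.5 CPM in the controls. All DLX5 libraries were far above all controls, with a log2 fold change of 4.35 ± 0.07, or 20.3-fold. THBS2 (ENSG00000186340, chromosome 6, 169215780 to 169254044, minus strand) was a rare transcript, at 1.56, 0.839 and 1.77 CPM with DLX5 and 4.15, 4.44 and 4.81 CPM in control. It was the only 1 of the 9 fitted genes that was lower with DLX5, by a log2 fold change of -1.67 ± 0.24, and the groups did not overlap. With 68 reads over the DLX5 libraries and 215 over the controls, the ratio of scaled counts was 0.313 (95% counting interval 0.235 to 0.413). The second DLX5 replicate held 13 THBS2 reads, and without it the log2 fold change was -1.42. On log2(FPKM + 1) the difference was -0.48, since both groups lay under 1 FPKM. Per base of gene length THBS1 exceeded THBS2 by 488, 955 and 416 times in the DLX5 libraries, against 8.75, 8.37 and 8.22 times in the controls.

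SPARC (ENSG00000113140, chromosome 5, 151661096 to 151687165, minus strand), or osteonectin, is a collagen-binding protein abundant in bone. It showed the tightest replicates of the set, at 571, 575 and 576 CPM across the DLX5 libraries and 284, 287 and 290 CPM in the controls. The coefficient of variation was 0.396% in the DLX5 libraries and 0.937% in the controls, and the log2 fold change was 1.00 ± 0.06 with no overlap of the groups. SPP1 (ENSG00000118785, chromosome 4, 87975650 to 87983426, plus strand) encodes osteopontin, a phosphoprotein ligand of integrins and CD44. It was low in all libraries, at 4.81, 4.71 and 4.81 CPM with DLX5, against 0.938, 1.02 and 0.974 CPM in control. Its log2 fold change of 2.28 ± 0.23 rests on 232 reads over the DLX5 libraries and 47 over the controls, a ratio of scaled counts of 4.88 (95% counting interval 3.56 to 6.83). The groups did not overlap, and on log2(FPKM + 1) the difference was 1.10. POSTN (ENSG00000133110, chromosome 13, 37562583 to 37598844, minus strand), the gene of periostin, a fasciclin-domain protein of bone and fibrous tissue, had 0 reads in all 6 libraries. A count of 0 allows up to 0.181 to 0.194 CPM per DLX5 library and 0.180 to 0.201 CPM per control library, taking 3 reads as the limit, and no fold can be given.

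The nidogens shared a direction but not a size. NID1 (ENSG00000116962, chromosome 1, 235975830 to 236065162, minus strand) was at 438, 405 and 412 CPM in the DLX5 libraries, against 220, 216 and 249 CPM in the controls. The groups did not overlap, and the log2 fold change was 0.88 ± 0.06. NID2 (ENSG00000087303, chromosome 14, 52004803 to 52069228, minus strand) was at 153, 151 and 150 CPM across the DLX5 libraries and at 7.91, 7.31 and 8.59 CPM in the controls. With a log2 fold change of 4.25 ± 0.08, or 19.1-fold, the groups did not overlap and NID2 lay close to THBS1. NID1 stayed the more abundant nidogen. Per base of gene length NID2 was at 0.332 ± 0.0104 of NID1 in the DLX5 libraries and at 0.0319 ± 0.0010 in the controls (SD, n = 3 each).

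**Figure D1:**
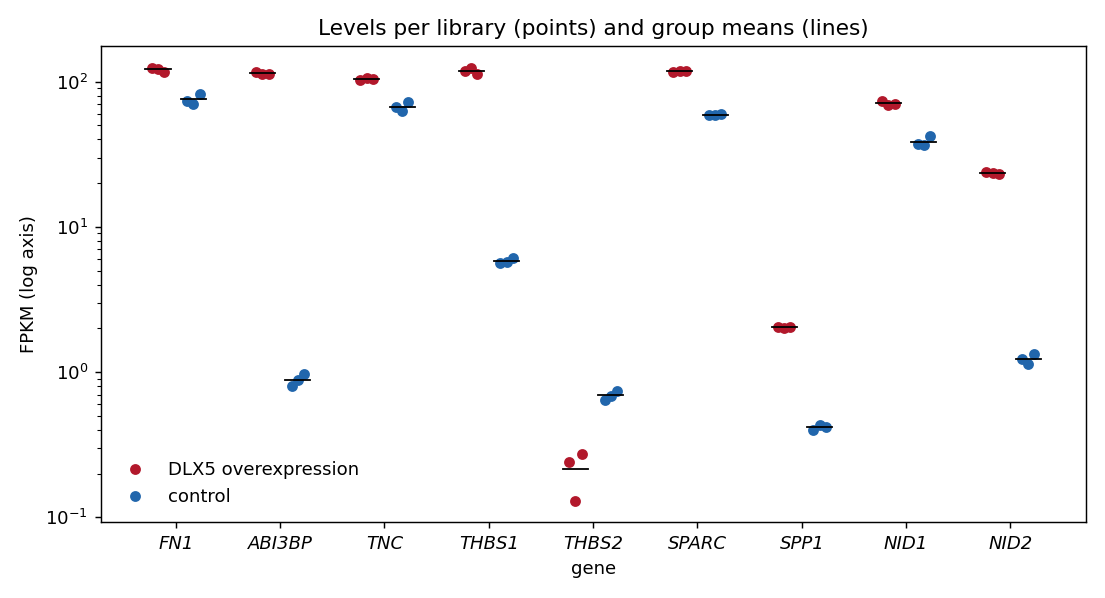
FPKM per library on a log axis for the 9 genes with reads, with DLX5 overexpression at the left of each gene and control at the right. Points are libraries and lines are group means. ABI3BP, THBS1 and NID2 show the widest gaps, THBS2 is the gene that is lower with DLX5, and POSTN, with 0 reads in all libraries, is not drawn.

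Levels of different genes were compared in FPKM, the authors' read count scaled by gene length and by a scaled library total. That total was 0.968 to 0.995 times the count sum in the DLX5 libraries and 1.027 to 1.033 times in the controls. In the DLX5 libraries FN1 (117 to 125 FPKM), THBS1 (113 to 124 FPKM) and SPARC (117 to 118 FPKM) could not be ordered beyond their spread. ABI3BP followed at 112 to 116 FPKM, a range that overlapped that of THBS1 but not those of FN1 and SPARC. Lower still lay TNC at 103 to 105 FPKM, NID1 at 68.8 to 73.8 FPKM, NID2 at 23.2 to 23.7 FPKM, SPP1 at 2.02 to 2.05 FPKM and THBS2 at 0.130 to 0.272 FPKM. The order in the controls was different. There FN1 (70.2 to 82.1 FPKM) and TNC (62.6 to 72.1 FPKM) overlapped, SPARC lay at 58.4 to 59.6 FPKM and NID1 at 36.5 to 42.2 FPKM, and the remaining genes were far below, THBS1 at 5.63 to 6.13 FPKM, NID2 at 1.13 to 1.33 FPKM, ABI3BP at 0.800 to 0.976 FPKM, THBS2 at 0.643 to 0.746 FPKM and SPP1 at 0.401 to 0.435 FPKM. ABI3BP and THBS1 thus lay within or next to the group of most abundant genes with DLX5, and below FN1, TNC, SPARC and NID1 in control. FPKM here divides by the merged exons of all annotated transcripts, which for FN1 come to 17315 bases over 27 transcripts and for ABI3BP to 10978 bases over 29 transcripts. The level of a gene with many transcripts is understated by that length where the expressed transcript is shorter.

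The 10 genes took 0.646% ± 0.0151 of all counted reads in the DLX5 libraries and 0.261% ± 0.0188 in the controls (SD, n = 3 each). Of the summed CPM difference between the groups, ABI3BP made up 30.7%, THBS1 25.6% and FN1 19.7%. The makeup of the summed FPKM differed accordingly. ABI3BP was 16.9% ± 0.275 of it in the DLX5 libraries and 0.355% ± 0.0249 in the controls, and THBS1 was 17.6% ± 0.655 in the DLX5 libraries and 2.34% ± 0.0678 in the controls. FN1 held 18.0% ± 0.331 in the DLX5 libraries and 30.2% ± 0.674 in the controls, although its own level was higher with DLX5.

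**Figure D2:**
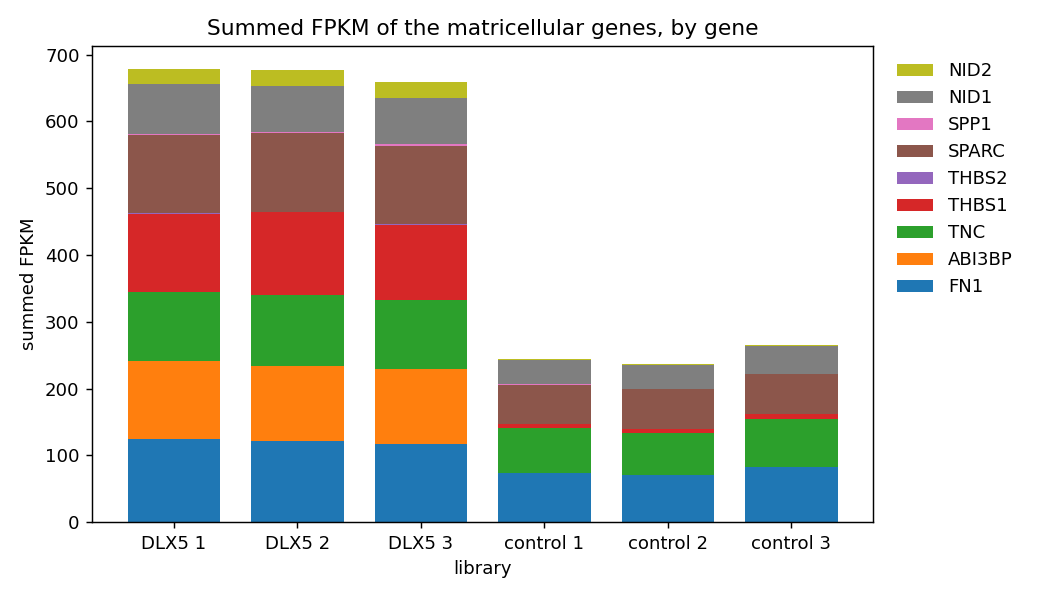
Summed FPKM of the matricellular genes in each library (bars, from 0), split by gene, with the 3 DLX5 libraries at the left and the 3 controls at the right. The sums are 658 to 679 FPKM in the DLX5 libraries and 237 to 266 FPKM in the controls, and ABI3BP and THBS1 form thick bands in the DLX5 bars and thin ones in the control bars.

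Positions and sequences, which played no part in the choice of genes, were examined next. The 10 genes lie on 10 different chromosomes. RefSeq promoter windows (GRCh38.p14, 250 bases before to 50 bases after each start) matched 10 of 10. The promoters of the 3 genes with the largest folds and of THBS2 are shown, from the window's far end to the base before the outermost annotated start, to compare their base makeup. The stretches are chr3:100993516-100993671, chr15:39580829-39581078, chr14:52069229-52069309 and chr6:169254045-169254096, each written 5′ to 3′ on the strand of its gene, with CG dinucleotides in capitals.
ABI3BP: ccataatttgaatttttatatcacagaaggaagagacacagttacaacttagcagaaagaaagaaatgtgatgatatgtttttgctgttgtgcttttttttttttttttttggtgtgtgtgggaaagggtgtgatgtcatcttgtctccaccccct
THBS1: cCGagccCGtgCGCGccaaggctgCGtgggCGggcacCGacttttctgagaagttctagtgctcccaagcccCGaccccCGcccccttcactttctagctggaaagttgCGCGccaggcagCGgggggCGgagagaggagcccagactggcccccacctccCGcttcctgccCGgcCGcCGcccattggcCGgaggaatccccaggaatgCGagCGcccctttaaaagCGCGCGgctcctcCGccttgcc
NID2: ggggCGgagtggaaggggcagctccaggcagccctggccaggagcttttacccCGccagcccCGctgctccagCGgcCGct
THBS2: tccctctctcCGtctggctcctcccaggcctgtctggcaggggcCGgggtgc

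The stretch before ABI3BP holds 0 CG dinucleotides in 156 bases, that before THBS1 24 in 250, that before NID2 5 in 81 and that before THBS2 2 in 52. Over the whole 300-base windows the GC content was 46.3% for ABI3BP, 70.0% for THBS1, 69.0% for NID2 and 61.7% for THBS2, where the median of 35116 promoters was 58.7%. The genes with the largest folds were therefore of both kinds, CpG-poor and CpG-rich. Among the others GC ran from 39.0% for POSTN and 47.7% for SPP1 to 74.7% for NID1 and 76.7% for FN1. The homeodomain core TAATTA was searched on both strands and was found in 0 of the 10 windows, against 4.84% of all promoters. A second homeodomain core, spelled TAATTG, was found once, in the NID2 window, against 7.38% of all promoters, and 11.4% of promoters hold one or the other. A further search on both strands was made for other cores. TATAAA occurred in the windows of THBS2, POSTN and ABI3BP, against 11.5% of all promoters. CCAAT occurred in those of FN1, THBS1, NID1 and NID2, against 34.6% of all promoters. GGAATG, the core bound by TEAD factors, occurred in the windows of THBS1, THBS2, SPARC and ABI3BP, against 14.0% of all promoters. TGANTCA, the AP-1 core, was present in the POSTN window alone of the 10, against 7.71% of all promoters. These matches are a description of letters in short windows, and say nothing about binding.

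Genes near the matricellular genes were measured too. Of 34 annotated genes that overlap one of them or lie within 50 kb, 7 could be tested, of which 3 rose, 0 fell and 4 did not pass, where 29.8% of all tested genes rose and 58.6% passed in either direction. With so few neighbours nothing particular to them is read from that count. TFG, whose protein acts in the secretory pathway, ends 190 bases from the 3′ end of ABI3BP on the opposite strand. It stood at 112 ± 2.24 CPM across the DLX5 libraries and 92.1 ± 4.90 CPM in control (SD, n = 3 each), a log2 fold change of 0.28 ± 0.06 (edgeR, adjusted p = 0.000368). That difference was far smaller than the one in ABI3BP. PKD2, the polycystin-2 channel gene downstream of SPP1, rose by 0.88 ± 0.06 on the log2 scale (adjusted p = 4.15e-12). AC037198.1, annotated as a sense-intronic transcript within THBS1, had 14, 13 and 23 reads in the DLX5 libraries and 4, 0 and 0 reads in the controls (adjusted p = 7.28e-05). Its control reads all came from control replicate 1. With that library the log2 fold change was 3.51 ± 0.67. Without it the controls held 0 reads, so the ratio of counts is not finite and no size is given. ATIC beside FN1 was at a log2 fold change of 0.09 ± 0.07 (adjusted p = 0.274), and FSIP1, which overlaps THBS1, at -0.52 ± 0.35 (adjusted p = 0.217).

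Overlap limits the count of 1 gene in particular. NID2 and RTRAF, an RNA-binding protein gene on the opposite strand, share 1915 exon bases, 30.0% of the NID2 exons, and whether reads were counted by strand is not stated in these sources, so how reads of the shared stretch were assigned is not known. RTRAF had 85.1 ± 2.27 CPM with DLX5 and 84.8 ± 2.26 CPM in control, with a log2 fold change of 0.01 ± 0.06 (edgeR, adjusted p = 0.949) whose sign changed under other scalings. GNG2, 25461 bases from NID2, stood at -0.15 ± 0.07 (adjusted p = 0.0925) and passed with upper-quartile factors (adjusted p = 0.0373) and with library totals alone (adjusted p = 0.0156). Neither neighbour differed by as much as NID2. ABI3BP, NID1 and THBS2 share 0 exon bases with any other annotated gene that overlaps them. SPARC shares 7.89% of its exon bases with the antisense gene CLMAT3, which had 8 reads over the DLX5 libraries and 3 over the controls. THBS1 shares 4.89% with FSIP1, which had 38 reads over the DLX5 libraries and 54 over the controls. It shares 4.49% with AC037198.2, which had 0 reads. TNC shares 1.34% with DEC1, which had 7 reads over the DLX5 libraries and 25 over the controls. These partners of THBS1 and TNC lie on the opposite strand. THBS2 is overlapped by the antisense gene BX322234.1, with 24 reads over the DLX5 libraries and 22 over the controls.

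**Figure D3:**
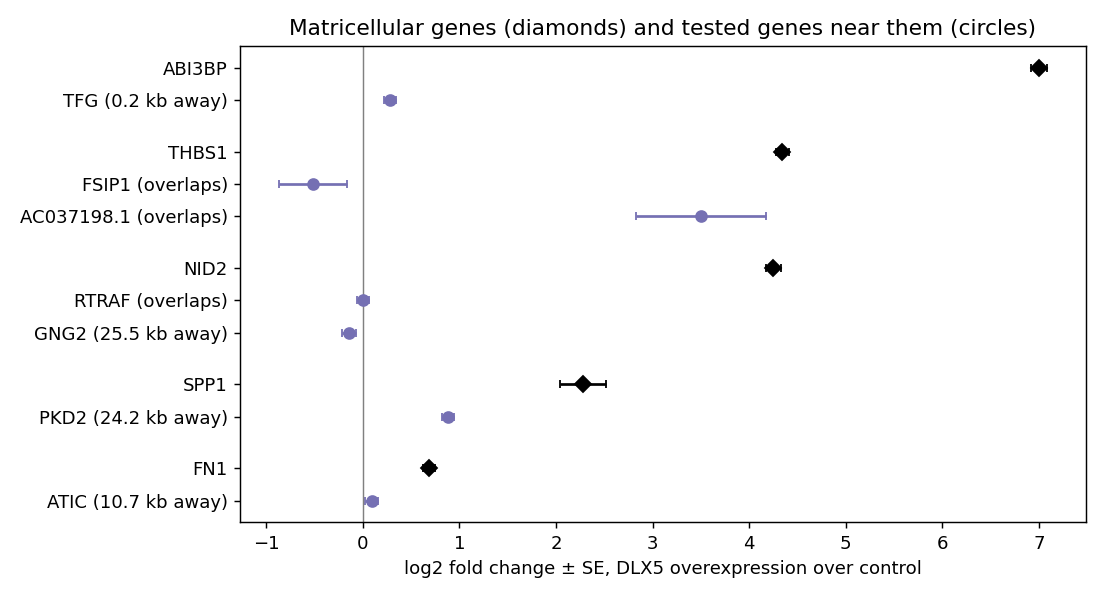
Log2 fold change with its standard error, DLX5 overexpression over control, for 5 matricellular genes (diamonds) and the tested genes that overlap them or lie within 50 kb (circles). TFG, 0.19 kb from ABI3BP, lies at 0.28 where ABI3BP lies at 7.00, and RTRAF, which overlaps NID2, lies at 0.01 where NID2 lies at 4.25. The value of AC037198.1, which overlaps THBS1, rests on 4 control reads of 1 library.

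To find transcripts with a group difference like that of ABI3BP, the 6 log2 CPM values of each gene were taken relative to its control mean. Then 6363 protein-coding genes with a similar control level were ranked by their root mean square difference from ABI3BP. The nearest was DLX5 itself, at 0.07 on the log2 scale. As the overexpressed gene, DLX5 shows the imposed change and not a response, so this match is one of size only. Next came MFAP5, a microfibril protein (0.57), the fibrillar collagen gene COL5A2 (0.75), tissue factor F3 (1.11) and the laminin receptor subunit ITGA6 (1.14). MFAP5 was at 295, 301 and 301 CPM with DLX5 and at 4.49, 3.96 and 3.23 CPM in control. F3 was at 138, 127 and 139 CPM with DLX5 and at 3.42, 2.70 and 3.05 CPM in control. Both genes were picked for values like those of ABI3BP, so the wide gap between their groups follows from the choice. The likeness rests on 6 libraries in 2 groups and mainly repeats the size of the group difference.

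Other genes of the same biology were followed in 4 lists, written with earlier results of these data known, so their counts are a description. From each list the 5 genes of smallest adjusted p are named first, so their small p-values follow from that choice. Of 28 other matricellular proteins and relatives 20 could be tested, and 14 of these rose, against 4 that fell and 2 that missed the threshold. Of all tested genes, 29.8% rose and 28.8% fell. The median log2 fold change of these relatives was 1.63, where that of all tested genes was -0.0018. FSTL1, a SPARC relative, had 2039 ± 71.7 CPM with DLX5 and 292 ± 7.37 CPM in control (SD, n = 3 each), a log2 fold change of 2.80 ± 0.06. CTGF, the connective tissue growth factor now named CCN2, rose by 4.58 ± 0.11, the matrilin MATN2 by 3.05 ± 0.08, ECM1 by 3.31 ± 0.11 and the proteoglycan SPOCK1 by 2.17 ± 0.07 (log2 fold change ± SE, largest adjusted p of the 5 genes 2.06e-19). The 4 relatives that fell, like THBS2 lower with DLX5, were TNR, TNN, SPOCK2 and VTN (chosen for mention once their values were known), at -0.61 ± 0.14, -1.13 ± 0.38, -1.55 ± 0.16 and -1.29 ± 0.24. The tenascin TNXB, likewise chosen, rose by 3.87 ± 0.33, with 14 reads over the controls. Of the other thrombospondins, THBS3 and THBS4 rose by 0.45 ± 0.07 and 0.58 ± 0.17, and COMP missed the threshold. The bone genes IBSP, DMP1 and MEPE, which belong to the same gene family as SPP1, had 0 reads in all libraries.

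Of the receptors for these proteins, 16 of 20 tested were higher and 4 lower, with a median of 1.14. Among all tested genes 29.8% were higher and 28.8% lower. The integrin chains ITGA3, ITGB5, ITGA5 and ITGAV rose by 3.30 ± 0.06, 2.95 ± 0.06, 2.34 ± 0.07 and 1.68 ± 0.07, and CD44, a receptor of osteopontin, by 2.30 ± 0.07 (log2 fold change ± SE, largest adjusted p 9.89e-18). ITGA5 and ITGAV carry the classical fibronectin receptors. The receptors that fell, chosen for mention once their values were known, were ITGA9, CNTN1, CACNA2D1 and SDC1, at -1.10 ± 0.10, -1.35 ± 0.07, -0.21 ± 0.07 and -0.36 ± 0.06. ITGA9 pairs with ITGB1 in a tenascin-C and osteopontin receptor, and CACNA2D1 is a neuronal thrombospondin receptor.

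Basement membrane and matrix partners were higher in 21 of 22 tested and lower in 1, with a median of 1.22. The shares over all tested genes were 29.8% higher and 28.8% lower. LAMC1, the laminin chain that nidogens bind, stood at 1128 ± 34.4 CPM with DLX5 and 389 ± 31.0 CPM in control, a log2 fold change of 1.54 ± 0.06 (adjusted p = 3.07e-17). COL1A1 rose by 3.93 ± 0.07, COL5A1 by 2.25 ± 0.07, COL3A1 by 2.01 ± 0.06 and fibrillin-1, FBN1, by 1.91 ± 0.07 (largest adjusted p of the 4 genes 2.27e-18). The gene that fell was FBLN2, a fibulin that binds nidogens and fibronectin, at -0.99 ± 0.08, singled out with its value known.

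The list of processing genes held 24 that could be tested, which process or cross-link these proteins or bind TGF-beta with them. Of these 18 rose and 6 fell, with a median of 0.98, where 29.8% of all tested genes rose and 28.8% fell. LTBP1, which stores latent TGF-beta on fibronectin fibrils, rose by 3.03 ± 0.07. The cross-linking enzymes LOXL4, LOX, LOXL2 and TGM2 rose by 3.71 ± 0.11, 3.40 ± 0.08, 1.70 ± 0.06 and 1.64 ± 0.06 (log2 fold change ± SE, largest adjusted p of the 5 genes 2.70e-18). Among those that fell, chosen for mention once their values were known, were the gelatinases MMP2 and MMP9, the aggrecanase ADAMTS4, TNFAIP6 and TGFB3, with log2 fold changes between -1.49 and -0.42. ABI3, likewise chosen once its values were known, had 45, 21 and 13 reads in the DLX5 libraries and 0, 2 and 0 reads in the controls. In CPM this was 2.71, 1.36 and 0.791 in the DLX5 libraries and 0, 0.120 and 0 in the controls. The DLX5 libraries differed widely among themselves and both control reads lay in control replicate 2, so no size of the difference is given.

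**Figure D4:**
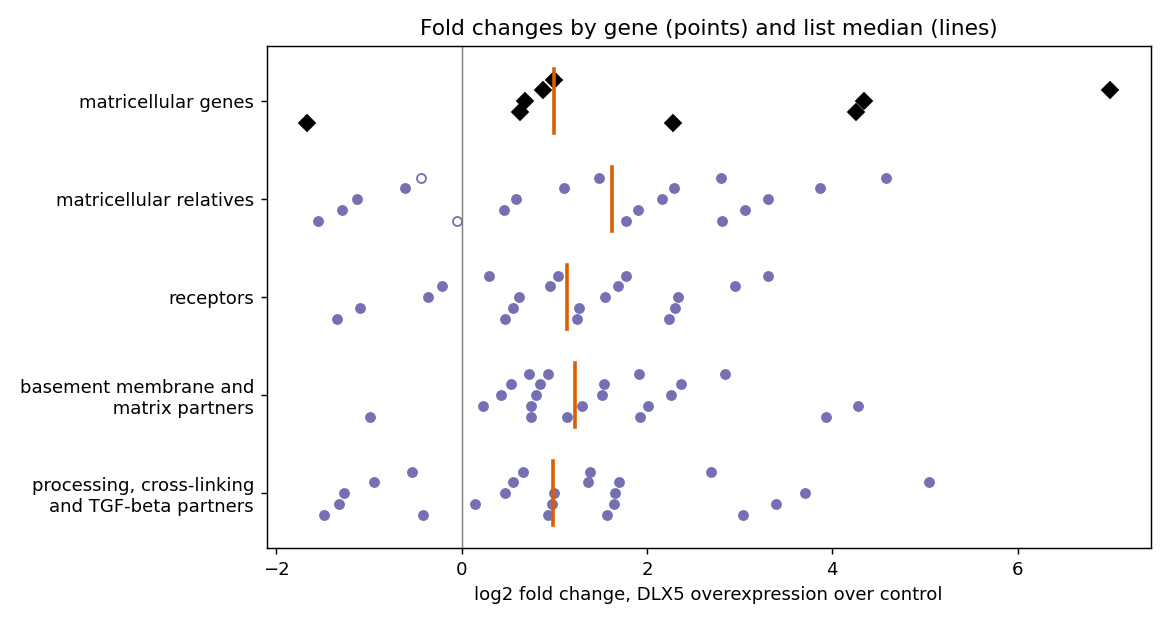
Log2 fold change, DLX5 overexpression over control, for the 9 fitted matricellular genes (diamonds, shown as a description) and for the tested genes of 4 lists (circles, filled where the adjusted p was under 0.05). Vertical lines are medians, at 1.63, 1.14, 1.22 and 0.98 for the lists from top to bottom. ABI3BP is the diamond at 7.00 and THBS2 the diamond at -1.67.

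Markers of other cell types moved with these genes in part. Where 29.8% of all tested genes rose, 8 of 9 fibroblast markers rose and 1, PDGFRA, did not pass. Their summed level was 6838 to 7100 CPM across the DLX5 libraries and 1549 to 1602 CPM in the controls. All 9 were at 1 CPM or more in the controls, and COL3A1 alone averaged 4383 CPM with DLX5 and 1089 CPM in control. COL1A1, COL3A1 and DCN stand in this list and in the partner list. Of 11 endothelial and blood markers 5 could be tested and 2 rose, with sums of 5.91 to 6.39 CPM across the DLX5 libraries and 2.21 to 3.17 CPM in the controls, and PTPRC and LYZ at 0 in the 3 DLX5 libraries. Of 8 Schwann and glial markers 4 could be tested, 2 rose and 1 fell, with sums of 8.52 to 9.07 CPM across the DLX5 libraries and 4.26 to 5.63 CPM in the controls, and FABP7 and CDH19 at 0 throughout. Their part in the differences of the matricellular genes was not tested.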

How the data were processed

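Per the labels' protocols, RNA came from a Trizol extraction and libraries from an NEBNext Ultra preparation. The deposited gene counts are whole numbers made by the authors. The submitters' processing notes list the aligner HISAT2 2.0.5, the counter featureCounts 1.5.0-p3 and the build hg19; settings are not stated. All 58735 genes nevertheless have the starts, ends and summed exon lengths of GENCODE 29 on GRCh38, so coordinates are given as GRCh38. The deposited FPKM values of the authors equal the counts over the gene length and a scaled total of 0.968 to 1.03 times the count sum, and hold no independent reads.

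Groups followed the genotype label. For the 3 DLX5 and 3 control libraries (14644077 to 16886026 reads), counts of all genes entered edgeR 4.0.16 (R 4.3.3): filterByExpr by group, TMM, quasi-likelihood test with no covariate, Benjamini-Hochberg adjustment. SE is the log2 fold change over the square root of F. A CPM ± is an SD over 3 libraries. The test was also run on simulated counts with few changed genes and a common dispersion. In the real data 58.6% of tested genes passed, so nothing is read from that run. The members and lists were chosen with earlier results of these data known. Named genes were the 10 members, DLX5, from each list the up to 5 genes of smallest adjusted p, tested genes within 50 kb of a member and the 5 genes most like ABI3BP, within 2 log2 CPM of its control level. Any other gene stands in a marker list or was chosen once its values were known. Alternatives were other scalings, filters and gene sets, DESeq2 1.42.0, limma 3.58.1 (voom, and log2(FPKM + 1) and log2(FPKM + 0.1)), a replicate block, an adjusted p under 0.01 and each library left out. Promoters are from RefSeq (GRCh38.p14). Figures were drawn with matplotlib 3.10.9.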

Additional observations from a re-analysis of the deposited data

How the results depend on the processing

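Of the 9 fitted matricellular genes, none changed direction under any of the 17 alternatives. Of their 153 values, 143 moved by less than the SD between replicates, and 10 by more, 5 of them on log2(FPKM + 1), which compresses low genes. There THBS1 was at 4.13, ABI3BP was at 5.93, NID2 at 3.46, SPP1 at 1.10 and THBS2 at -0.48. Without 1 library ABI3BP ran from 6.93 to 7.07, THBS1 from 4.32 to 4.38, NID2 from 4.19 to 4.31 and THBS2 from -1.88 to -1.42. Counts of all genes and of the 4 lists stayed within 1.5 times their values, with 8388 (adjusted p under 0.01) to 10481 (no filter) genes passing. With the replicate block 10224 genes passed. Same-numbered libraries correlated at 0.0014, 0.077 and -0.034 in their deviations from the group means, and unlike-numbered ones at -0.077 to 0.082. These values gave no sign that the numbers pair the libraries, but with so few libraries they cannot exclude a pairing. RTRAF changed sign with upper-quartile factors (-0.030), with library totals alone (-0.062) and without single libraries (-0.015 to 0.023), never passing; the cause was not tested. With 68 THBS2 reads over the DLX5 libraries and 47 SPP1 reads over the controls, the sizes of these changes are limited by counting.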
